A study of Mus musculus with 12 samples.

Results

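The genes described here encode the machinery of oxidative phosphorylation, followed in mouse CD4+ T cells cultured under Th1, Th2 or Th17 conditions. They were taken from the deposited tables by name: protein-coding genes on the mitochondrial chromosome, and protein-coding genes whose names start with Nduf, Uqcr, Atp5 or Cox4 to Cox8, with Sdha, Sdhb, Sdhc and Sdhd. Atp5a1 was left out by the rule and is not analysed here. This gave 106 of 41457 genes, of which 13 lie in mitochondrial DNA and 93 in the nucleus. By complex, the nuclear genes were 44 for complex I, 4 for complex II, 8 for complex III, 20 for complex IV and 17 for complex V. The mitochondrial genes were 7 for complex I, 1 for complex III, 3 for complex IV and 2 for complex V. The rule by name also took in 8 complex I assembly factors (Ndufaf genes), the supercomplex factor Cox7a2l, Atp5s, which is not a structural subunit, and Ndufa4l2, a paralogue of Ndufa4.

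Oxidative phosphorylation takes place in the inner mitochondrial membrane. Complexes I to IV pass electrons from NADH and succinate to oxygen and most of them pump protons, and complex V (ATP synthase) uses the proton gradient to make ATP. Complexes I, III, IV and V are built from subunits of both genomes, whereas complex II is wholly nuclear. Mitochondrial genes are copied as long polycistronic transcripts from both strands and cut into mRNAs, while each nuclear gene has its own promoter. Activated T cells are known to raise both glycolysis and mitochondrial mass.

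The study, whose title concerns the loss of NFATc1 SUMOylation, compared C57BL/6 wild-type (WT) mice with C57BL/6 NFATc1/ΔS mice, whose NFATc1, a calcium-regulated transcription factor of activated T cells, cannot be SUMOylated. CD4+ T cells from lymph nodes and spleen were stimulated through CD3 and CD28 and collected at day 2.5 or 3.5; mouse ages are not given in the labels. Th1 cultures received IL-12 with anti-IL-4, Th2 cultures IL-4 with anti-IFN-γ, and Th17 cultures TGFβ and IL-6 with anti-IFN-γ and anti-IL-4. The Th17 cultures also used another medium and less anti-CD3, so an effect of Th17 conditions cannot be told apart from one of medium or anti-CD3. Each combination of cell type, genotype and day is 1 library of poly(A)-selected RNA, 12 in all, and nothing in the labels says which libraries came from separate animals, so p-values measure only the spread between these libraries.

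The mitochondrial mRNAs are shown first, because their layout bears on how their reads were counted. Poly(A) selection captures an mRNA by its tail, which in mitochondria is added after cutting. Whether all 13 carry it alike was not tested. In 3 of 13 the annotated mRNA stops 1 base past the last full codon, so the stop codon is completed only by the added tail. The other 10 carry a whole stop codon, TAA or TAG. The last 30 bases of the 3 and of mt-Co1 for comparison (GENCODE transcripts on GRCm38, chromosome MT, plus strand) are given 5′ to 3′, with the last codon or part codon in capitals.
mt-Co3: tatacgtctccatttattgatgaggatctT
mt-Nd4: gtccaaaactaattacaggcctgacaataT
mt-Cytb: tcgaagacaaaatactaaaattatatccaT
mt-Co1: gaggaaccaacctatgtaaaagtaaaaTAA
These end at positions 9390, 11544, 15288 and 6872 of the mitochondrial genome. The mt-Atp8 and mt-Atp6 genes, both for ATP synthase, share 43 bases, chrMT:7927-7969, shown next with the start codon of mt-Atp6 in capitals.
mt-Atp8 and mt-Atp6 overlap: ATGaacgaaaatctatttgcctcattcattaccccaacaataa
The overlap between mt-Nd4l and mt-Nd4 was 7 bases, and mt-Nd5 and mt-Nd6 overlapped by 14 bases on opposite strands. The library kit is not marked as strand-specific in the labels, so it is not known whether reads of overlapping genes were told apart by strand. The nuclear genome also holds annotated copies of mitochondrial genes: Gm28439 matched mt-Nd4 over 876 bases, Gm28437 matched mt-Co3 over 783, Gm10925 matched mt-Atp6 over 678 and Gm28661 matched mt-Co2 over 681, each at 100% identity. Gm29216 matched mt-Co1 over 492 bases at 98.78% and Gm28438 matched mt-Nd3 over 345 at 99.71%. The share of reads that mapped uniquely was 75.0% for mt-Co1, 70.3% for mt-Co2 and 94.8% for mt-Nd2. It was at least 99.998% for the other 10 mitochondrial genes, which include mt-Nd4, mt-Co3, mt-Atp6 and mt-Nd3. No copy is listed here for mt-Nd2, and the part of the copies in these shares was not tested.

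For the nuclear genes, the promoters of 2 members that changed in opposite directions between days (described with the days) are shown, together with that of Cox6a1, which holds both motifs searched. Windows run from 250 bases before to 50 bases after a RefSeq gene start (GRCm38.p6); 74 of the 93 nuclear genes were matched by symbol. Searched on both strands were GCGCATG, a core of the NRF1 motif, whose forward and reverse matches overlap where the motif is palindromic, and CCGGAAG, an ETS motif of the kind bound by GABP; in Cox6a1 the matches of the 2 motifs do not overlap. NRF1 and GABP are textbook activators of nuclear respiratory genes. Motif letters are in capitals.
Ndufaf4: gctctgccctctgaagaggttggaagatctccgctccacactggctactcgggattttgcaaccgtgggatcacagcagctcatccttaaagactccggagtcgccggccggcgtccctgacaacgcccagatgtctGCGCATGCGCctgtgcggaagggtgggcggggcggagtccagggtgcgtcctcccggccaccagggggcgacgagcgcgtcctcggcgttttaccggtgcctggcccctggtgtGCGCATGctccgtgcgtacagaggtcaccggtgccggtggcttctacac
Atp5g2: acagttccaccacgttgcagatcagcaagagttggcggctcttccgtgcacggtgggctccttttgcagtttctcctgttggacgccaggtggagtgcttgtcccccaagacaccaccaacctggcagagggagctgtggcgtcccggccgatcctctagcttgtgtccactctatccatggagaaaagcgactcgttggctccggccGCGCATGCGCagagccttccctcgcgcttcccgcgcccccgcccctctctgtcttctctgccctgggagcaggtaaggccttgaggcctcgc
Cox6a1: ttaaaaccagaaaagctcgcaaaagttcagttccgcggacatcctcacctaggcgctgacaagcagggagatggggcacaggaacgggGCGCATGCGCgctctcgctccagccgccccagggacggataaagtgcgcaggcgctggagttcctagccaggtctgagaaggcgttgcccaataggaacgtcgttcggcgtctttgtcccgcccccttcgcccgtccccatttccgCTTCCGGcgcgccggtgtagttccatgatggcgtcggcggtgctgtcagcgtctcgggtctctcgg
The windows are chr4:24897833-24898132 on the plus strand for Ndufaf4, chr15:102670998-102671297 on the minus strand for Atp5g2, and chr5:115348909-115349208 on the minus strand for Cox6a1. The NRF1 core lay in 15 of 74 members' promoters (20.3%) and in 4.41% of those of all 27025 genes in the table, counting a gene once if any of its starts matched. The ETS motif lay in 18 of 74 (24.3%) and in 9.93% of all. All printed windows hold the NRF1 core. Those of Cox6b2 and Ndufb11, also described below, held neither motif and are not printed. A match is a description of letters and not of binding.

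The tables held between 13417121 and 17774400 reads on genes per library. Summed markers went with the labels. In Th1 libraries Th1 markers summed to 420 to 545 CPM (reads scaled to a common library size with TMM factors), elsewhere to at most 186. Th2 markers summed to 716 to 1220 in Th2 libraries and at most 121 elsewhere. Th17 markers summed to 84.5 to 180 in Th17 libraries and at most 16.0 elsewhere. Single markers could overlap. Cxcr3, a Th1 marker, was 1.7 (WT) and 2.52 CPM (NFATc1/ΔS) in Th1 at day 3.5, against 2.96 to 4.36 in Th2 libraries. Il23r, a Th17 marker, was 1.57 CPM in Th17 NFATc1/ΔS day 2.5 and 1.58 in Th1 WT day 2.5. The other helper cell markers did not overlap. CD4 T cell markers summed to 1880 to 2470 CPM throughout. The 6 B cell markers summed to 21.8 to 26.8 CPM in Th2, 4.98 to 12.5 in Th17 and 1.44 to 2.75 in Th1 libraries, with none at 0 over a whole group; their part in the differences between cell types below was not tested. The 8 myeloid and dendritic markers summed to at most 10.6 CPM (Csf1r at 0 in all Th1 libraries), the 6 erythroid markers to at most 23.5 and the 5 CD8 T and NK markers to at most 52.6.

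The 2 Th1 libraries of day 2.5 stood apart. The WT one correlated with the other Th1 libraries at 0.962 to 0.968 and with Th17 libraries at 0.971 to 0.984 (Pearson's r of log2 CPM across genes, which are not replicates). The NFATc1/ΔS one held the highest value of the 12 libraries in 9 of 13 mitochondrial genes and in 47 of the 87 nuclear members tested (54.0%), where over all 12797 genes tested it held the highest value in 28.9% and the lowest in 24.3%. Of its 4 Th1 markers, Ifng (186 CPM), Tbx21 (66.5) and Cxcr3 (12.0) were the highest of the Th1 libraries, and Il12rb2, the most abundant, was the lowest at 253 CPM (337 to 440 in the others). Its uniquely mapped share (81.4%) was the highest of the 12, and its intronic share (2.50%) lay within the range of 2.28 to 4.34%. Comparisons that use these libraries are given with and without them below.

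Per length, mitochondrial mRNAs were far more abundant than nuclear ones. Levels between genes are compared as TPM computed from exon reads over the deposited exon length. The 13 mitochondrial genes had a median of 3374 TPM (mean over 12 libraries for each gene) and the 93 nuclear genes a median of 127 TPM, and the lowest mitochondrial gene, mt-Nd3 at 1313 TPM, lay above the highest nuclear one, Cox8a at 1065 TPM.

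Among the mitochondrial genes, the 3 catalytic-core subunits of cytochrome c oxidase and the 2 ATP synthase subunits led. mt-Co1 averaged 22060 TPM, mt-Co2 11040, mt-Atp6 9997, mt-Atp8 8651 and mt-Co3 7112. The 7 complex I subunits lay lower, from mt-Nd1 at 3883 TPM through mt-Nd4 (2091), mt-Nd2 (1856), mt-Nd5 (1628), mt-Nd4l (1528) and mt-Nd6 (1379) to mt-Nd3 (1313). mt-Cytb, the only mitochondrial subunit of complex III, averaged 3374 TPM. mt-Nd6, which is read from the other strand, was thus among the 3 lowest. How reads in its 14-base overlap with mt-Nd5 were counted is not given in the sources used here. How well poly(A) selection captured each mitochondrial mRNA was not tested, which limits this ranking.

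Nuclear levels spread widely within each complex. The medians were 90.4 TPM for complex I (6.88 to 476), 152 for complex II (78.4 to 224), 221 for complex III (106 to 356), 142 for complex IV (0 to 1065) and 193 for complex V (0.853 to 822). The most abundant nuclear genes were Cox8a, Atp5b (822 TPM), the catalytic β subunit of ATP synthase, and Cox6a1 (689 TPM). All 4 subunits of complex II, which is also succinate dehydrogenase of the citric acid cycle, were expressed: Sdhd averaged 224 TPM, the flavoprotein Sdha 179, the iron-sulphur subunit Sdhb 124 and Sdhc 78.4.

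Of the subunits with paralogues used in other tissues, the widely expressed form led in every pair. Cox4i1 averaged 556 TPM and Cox4i2, a form known from lung, 3.79. Cox6a1 stood at 689 TPM against 1.02 for Cox6a2, the heart and muscle form, and Cox7a2 at 275 against 16.3 for its muscle counterpart Cox7a1. Cox6b1 averaged 529 TPM and Cox6b2, known from testis, 22.9. Cox8b and Cox8c had 0 reads in all 12 libraries and Cox7b2 had 1 read in all, against 201 TPM for Cox7b. A count of 0 bears on these libraries' depth only. Ndufa4 averaged 135 TPM and Ndufa4l2 0.297. Subunit c of ATP synthase, the membrane ring that turns with proton flow, is encoded by 3 genes with the same mature protein: Atp5g2 averaged 419 TPM, Atp5g3 291 and Atp5g1 32.9.

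Across the 12 libraries the standard deviation of log2 CPM had a median of 0.284 over the 13 mitochondrial genes (0.154 for mt-Co2 to 0.485 for mt-Nd3) and of 0.208 over the 79 nuclear members with a median of at least 10 CPM (0.095 to 0.603, the highest being Ndufb11). These 2 ranges overlap.

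The balance between the genomes differed between cell types. Mitochondrial members took 2.19 to 2.86% of the reads on genes (median 2.47%) and nuclear members 0.815 to 1.03%. In Th1 libraries the nuclear share was 0.912 to 1.03%, wholly above Th2 (0.818 to 0.866%) and Th17 (0.815 to 0.90%), while the mitochondrial shares of the cell types overlapped. In bulk RNA a difference in cell number and one in RNA per cell cannot be told apart.

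The log2 ratio of mitochondrial to nuclear reads in Th1 was 1.18 (WT day 2.5), 1.31 (WT day 3.5), 1.38 (NFATc1/ΔS day 2.5) and 1.32 (NFATc1/ΔS day 3.5). In Th2 it was 1.51, 1.58, 1.62 and 1.69 in the same order, and in Th17 1.58, 1.47, 1.75 and 1.45. All 4 Th1 values lay below all 8 others. Within genotype and day, Th1 minus Th2 averaged -0.30 ± 0.06 (SD, n = 4), with 0 of 4 above 0, and Th1 minus Th17 -0.27 ± 0.14 (SD, n = 4), with 0 of 4 above 0; these share the Th1 libraries. Th2 minus Th17 averaged 0.03 ± 0.16 (SD, n = 4), with 2 of 4 above 0, which is less than its spread. No p is given for the ratio, since it is a score over the members.

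Without both day 2.5 Th1 libraries the difference was -0.31 against Th2 and -0.15 against Th17. With mt-Co1 left out, an alternative chosen after seeing the data, Th1 minus Th2 became -0.13 and Th1 minus Th17 -0.15. The Th1 ratios then ran from 0.28 to 0.88 and overlapped those of Th2 (0.44 to 0.79) and Th17 (0.55 to 0.73). That overlap came from the NFATc1/ΔS day 2.5 library, at 0.88. The other 3 Th1 libraries, at 0.28 to 0.37, lay below all 8 Th2 and Th17 libraries, of which the lowest was 0.44. With mt-Co1 and this library's block both left out, Th1 minus Th2 was -0.27 and Th1 minus Th17 -0.25.

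**Figure D1:**
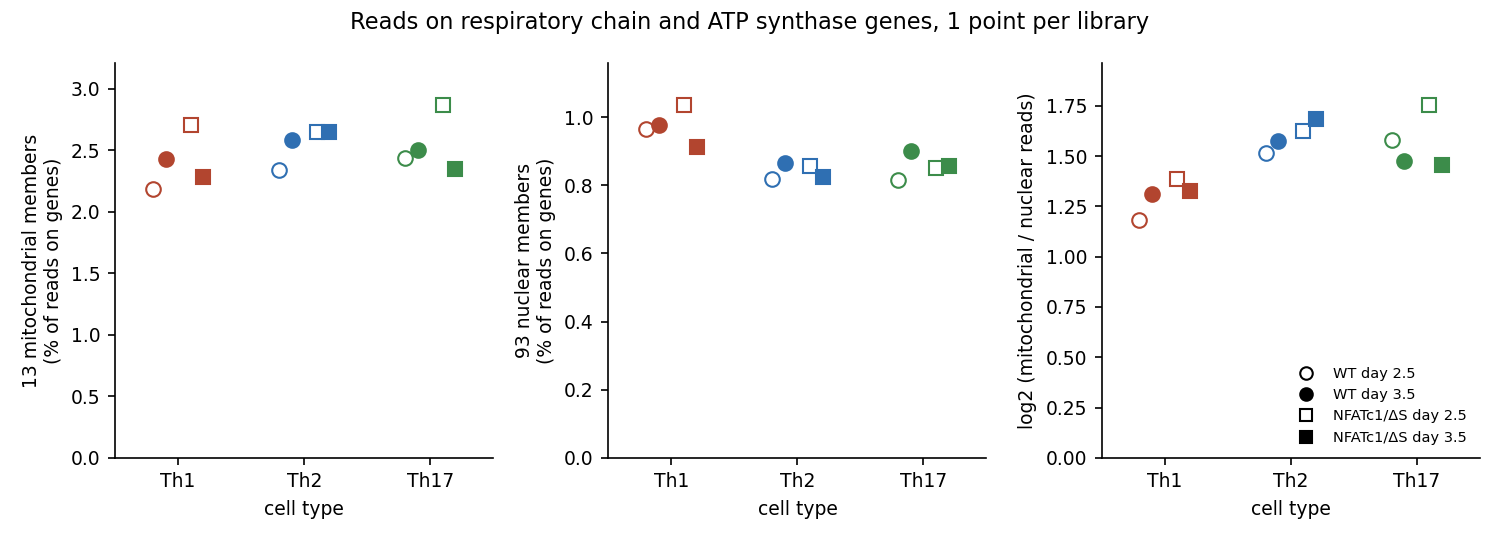
Percent of reads on genes for the 13 mitochondrial members (left) and the 93 nuclear members (middle), and the log2 ratio of the 2 read sums (right), by cell type. Each point is 1 library; circles are WT, squares NFATc1/ΔS, open symbols day 2.5 and filled symbols day 3.5. The Th1 ratios, 1.18 to 1.38, lie below those of the other 8 libraries.

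The genotype difference in this ratio, NFATc1/ΔS minus WT, averaged 0.10 ± 0.09 (SD, n = 6 pairs) and was above 0 in 5 of 6 pairs; with mt-Co1 left out it was 0.18, and with mt-Co1 and the Th1 day 2.5 pair left out 0.10. Day 3.5 minus day 2.5 averaged -0.04 ± 0.16 (SD, n = 6) with 3 of 6 above 0, so the days were not separated beyond the spread of the pairs.

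mt-Co1, the catalytic subunit of cytochrome c oxidase, alone made up 43.9 to 52.6% of mitochondrial member reads in 11 libraries. In the library labelled Th1 NFATc1/ΔS day 2.5 the share was 29.7%. There mt-Co1 was the lowest of 12 at 8006 CPM (9684 to 15190 elsewhere), while most other mitochondrial mRNAs were at their highest. mt-Cytb stood at 2665 CPM against 1032 to 1061 in the other Th1 libraries, mt-Nd4 at 1800 against 807 to 854 and mt-Nd3 at 381 against 99.0 to 146. mt-Co2 (2853 CPM), mt-Atp6 (2562) and mt-Atp8 (678) lay within the range of the other 11.

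**Figure D2:**
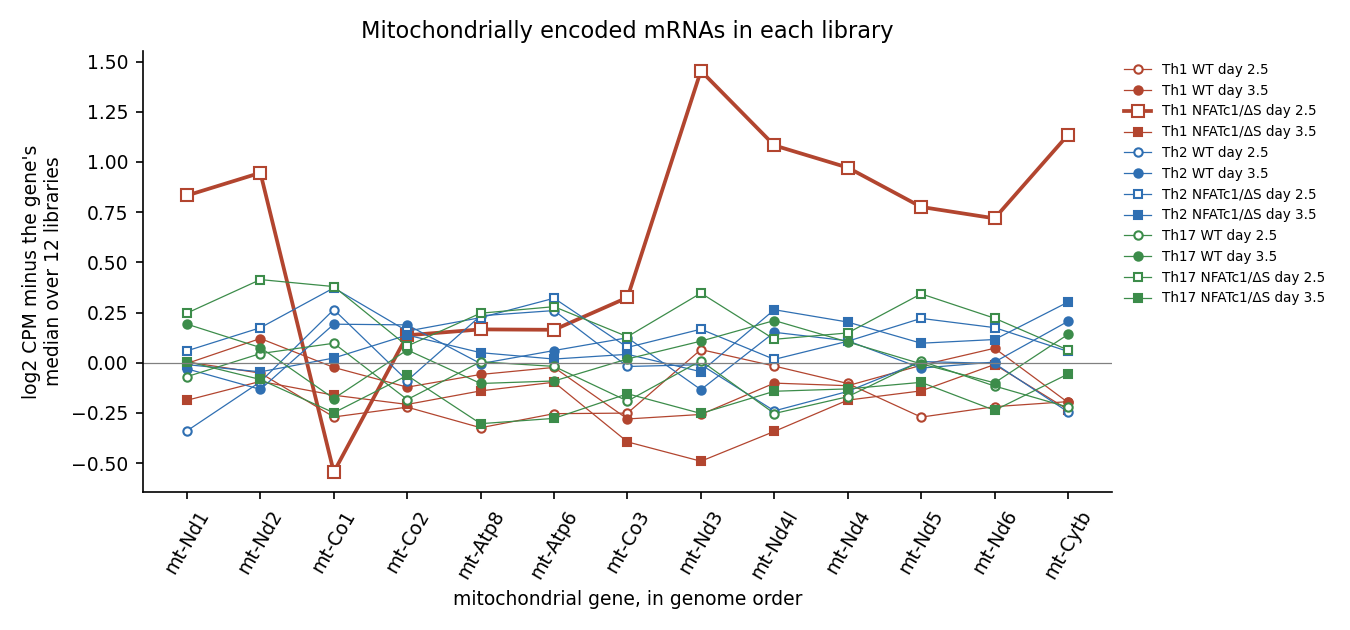
Log2 CPM of each mitochondrial gene, in genome order, minus that gene's median over the 12 libraries; each line is 1 library. The thick line, Th1 NFATc1/ΔS day 2.5, is the lowest for mt-Co1 (8006 CPM) and the highest for mt-Cytb (2665 CPM).

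Th1 and Th2 cells differed in nuclear members of complexes I, II, IV and V. Of 100 members tested with edgeR's quasi-likelihood test (adjusted p under 0.05, Benjamini-Hochberg over all 12797 genes, genotype by day as 4 blocks), 13 were higher and 1 was lower in Th1. Over all genes 14.6% were higher and 14% lower, so the share of members that was higher (13 of 100) was near the background and few members were lower. Complex I held 8 of the 13 higher and the 1 lower, and 44 of the 87 nuclear members tested; the complexes were not tested against each other. None of the 13 mitochondrial genes passed in edgeR; 1 of them had an unadjusted p under 0.05, and DESeq2 called 2 lower. The median log2 fold change was 0.17 over nuclear members, 0.07 over mitochondrial ones and 0.07 over all genes.

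The member with the largest difference that passed was Ndufb11, an X-linked accessory subunit of complex I (GRCm38 chrX:20615326-20617619, minus strand). It measured 279, 237, 257 and 203 CPM in Th2 (WT day 2.5, WT day 3.5, NFATc1/ΔS day 2.5, NFATc1/ΔS day 3.5), against 113, 107, 92.0 and 96.1 in Th1 and 115, 99.3, 128 and 110 in Th17. The Th2 values lay wholly above those of both other cell types. The log2 fold change, Th1 minus Th2, was -1.25 ± 0.11 (SE) with edgeR adjusted p = 0.000158, and it passed under all 14 alternatives. Ndufb11 overlaps Rbm10 on the opposite strand by 117 bases, and 81.8% of its reads mapped uniquely; with unique reads only the value was -1.25.

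Higher in Th1 were 3 of the 8 complex I assembly factors, and all 8 had fold changes above 0. Ndufaf7, a methyltransferase that acts on a core subunit during assembly, measured 16.6, 20.1, 24.8 and 16.6 CPM in Th1 and 9.09, 9.34, 8.88 and 10.4 in Th2. The groups did not overlap, and the log2 fold change was 1.04 ± 0.15 (SE; edgeR adjusted p = 0.00151), passing under all 14 alternatives. Ndufaf5 and Ndufaf6 were each higher by 0.48.

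Core and accessory complex I subunits higher in Th1 were Ndufb2, Ndufs5, Ndufs7, Ndufs8 and Ndufb8. Ndufb2 measured 26.4, 24.9, 23.4 and 24.1 CPM in Th1 and 11.9, 15.8, 14.4 and 14.2 in Th2, with no overlap. Its log2 fold change was 0.83 ± 0.16 (SE; edgeR adjusted p = 0.0059), passing under all 14 alternatives, though only 48.9% of its reads mapped uniquely and it overlaps Braf on the opposite strand by 146 bases. Ndufs7 and Ndufs8, which carry iron-sulphur clusters, were higher by 0.39 and 0.36, Ndufs5 by 0.53 and Ndufb8 by 0.38.

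Outside complex I, Sdhd (0.31), a membrane anchor of complex II, passed, as did Cox7a2 (0.34) and Cox6c (0.30), small complex IV subunits, and Atp5b (0.34) and Atp5s (0.61) of complex V. None of the 8 nuclear complex III members passed. In terms of separation, 19 of 87 nuclear members (21.8%) were wholly higher in Th1 than in Th2 and 1 was wholly lower, against 17.1% and 15.4% of all genes.

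Of the mitochondrial mRNAs, mt-Co1 came nearest to passing. It measured 9684, 11490, 8006 and 10440 CPM in Th1 and 14030, 13340, 15120 and 11870 in Th2, so that the groups did not overlap. The log2 fold change of -0.44 ± 0.17 (SE) had an edgeR adjusted p of 0.0791; over the 14 alternatives this p ran from 0.0295 to 0.238 and passed in 2. Without the NFATc1/ΔS day 2.5 Th1 library the fit called 12 members higher and 3 lower, 2 of the latter mitochondrial (mt-Co2 at -0.25 and mt-Co3 at -0.33), beside 16.6% and 15.7% of all genes; without the WT day 2.5 Th1 library it called 9 higher and 3 lower, beside 11.9% and 12.5%. Leaving out a whole block of genotype and day, and so 1 library of each cell type, left 4 (WT day 2.5), 2 (WT day 3.5), 8 (NFATc1/ΔS day 2.5) and 3 (NFATc1/ΔS day 3.5) higher. The share of all genes that was higher in these fits fell too, to 6.84%, 5.75%, 12.5% and 6.96%.

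Th1 exceeded Th17 in 6 nuclear members and fell below it in none. Over all genes 1.95% were higher and 2.83% lower. Those that passed edgeR were Ndufb2 (0.79 ± 0.16 SE), Cox5b (0.65), Cox5a (0.52), Ndufa3 (0.46), Cox7a2 (0.41) and Uqcrfs1 (0.35), with adjusted p from 0.0278 to 0.0441. Cox5a and Cox5b are accessory subunits that sit beside the complex IV core, and Uqcrfs1 is the Rieske iron-sulphur protein of complex III. Cox5b measured 107, 107, 102 and 99.5 CPM in Th1 and 45.03, 82.7, 68.1 and 74.6 in Th17, without overlap. In all, 23 of 87 nuclear members (26.4%) were wholly higher in Th1 than in Th17 and none wholly lower, against 7.0% and 7.42% of all genes; the medians were 0.20 over nuclear members, 0.08 over mitochondrial ones and 0.03 over all genes. None of the 13 mitochondrial genes passed, 0 had an unadjusted p under 0.05, and DESeq2 called none. Leaving out any 1 block of genotype and day left 0 or 1 member higher, with 0.196 to 1.07% of all genes higher, and leaving out a single day 2.5 Th1 library gave 4 higher and 1 lower (WT) or 9 higher and 1 lower (NFATc1/ΔS), with 2.34% and 3.23% of all genes higher. This comparison shares the Th1 libraries with that against Th2.

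Th2 and Th17 differed in 4 nuclear members. Over all genes 6.36% were higher and 5.67% lower in Th2. Ndufb11 was higher in Th2 by 1.11 ± 0.11 (SE; edgeR adjusted p = 0.000588; passed under all 13 alternatives) and Uqcrfs1 by 0.43 ± 0.08. Ndufaf7 (-0.56) and Ndufaf5 (-0.40) were lower. The next by p, Atp5mpl, a small ATP synthase subunit, had 0.28 and an adjusted p of 0.0746 and did not pass. A fit to the 8 Th2 and Th17 libraries alone called 24 higher and 5 lower, where over all genes 20.2% were higher and 21.2% lower. No mitochondrial gene passed here, 0 had an unadjusted p under 0.05, and DESeq2 called none.

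**Figure D3:**
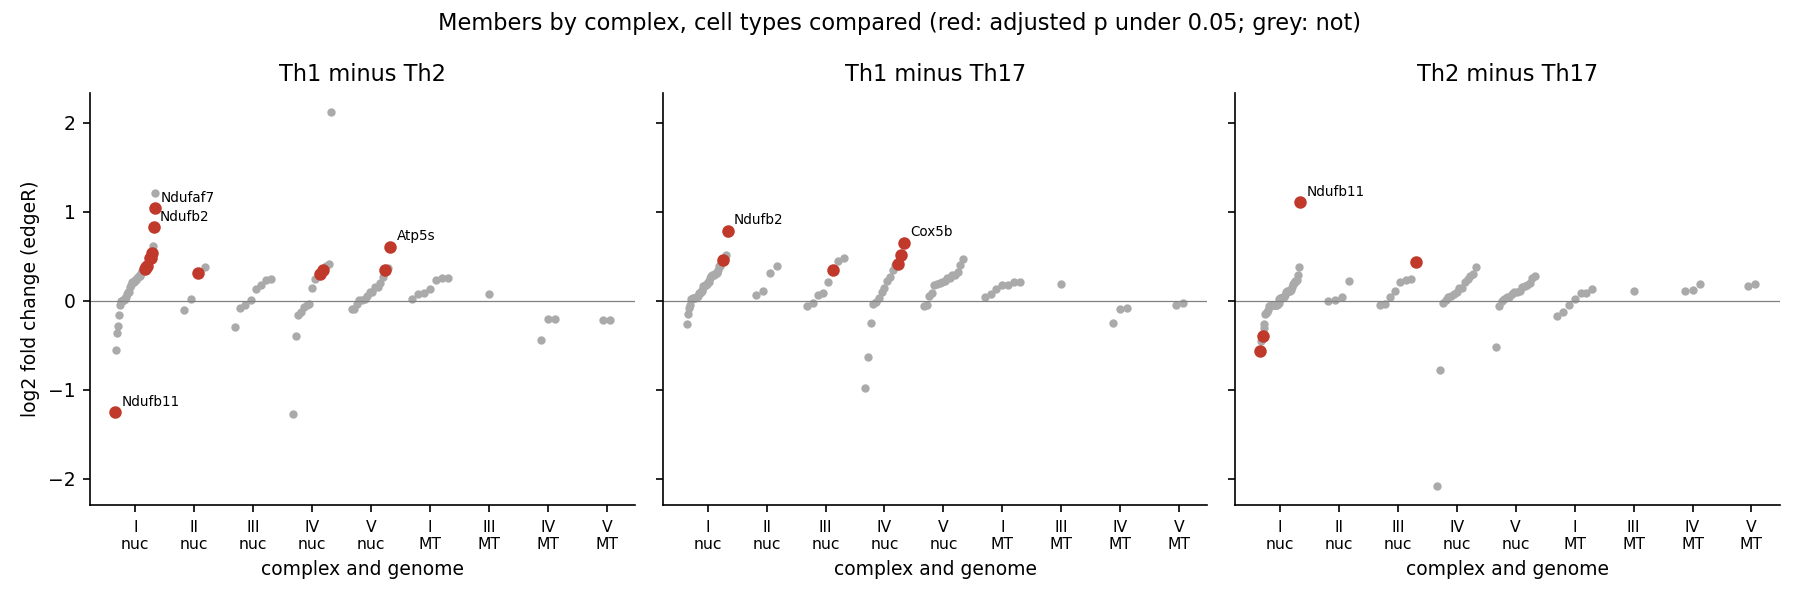
Log2 fold change of each member tested, by complex and genome, for Th1 minus Th2, Th1 minus Th17 and Th2 minus Th17; each point is 1 gene, red where edgeR's adjusted p was under 0.05. Ndufb11 stands out below 0 (-1.25) in the left panel and above 0 (1.11) in the right one, and no mitochondrial gene is red.

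Other genes of mitochondrial energy metabolism were read from lists. Between Th1 and Th2, 9 of 45 electron carriers and assembly factors outside the member list were higher in Th1 and 0 lower, beside the 14.6% and 14% of all genes, which hold for the other lists of this comparison too. Cox17, a copper chaperone for complex IV, was higher by 1.89 ± 0.12 (SE; edgeR adjusted p = 3.93e-05), Sdhaf3, an assembly factor of complex II, by 0.99 and Cox18 by 0.85. Of 33 genes of mitochondrial DNA transcription, RNA processing and replication, 7 were higher and 1 lower: Rexo2 (0.97), Fastkd1 (0.91) and Lrpprc (0.84), which stabilises mitochondrial mRNAs, were higher and Hsd17b10 (-0.72), part of mitochondrial RNase P, was lower.

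Of 18 citric acid cycle genes, 8 were higher in Th1 (Idh3a 0.83, Dlat 0.66, Dlst 0.61) and Suclg1 was lower (-0.94). Of 16 nuclear regulators, Myc (0.81), Tfeb (0.63) and Gabpa (0.51), the DNA-binding part of GABP, were higher and Hif1a (-0.96) and Nfe2l2 (-0.53) lower. Of 78 mitochondrial ribosomal proteins 9 were higher and 2 lower, and of 25 import and folding genes 0 were higher and Timm17b (-0.38) lower. The list medians ran from 0.08 for the regulators to 0.36 for the citric acid cycle, beside 0.07 over all genes.

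Between Th1 and Th17 the lists together held 7 genes higher and 2 lower in Th1, beside 1.95% and 2.83% of all genes. The list sizes are those given above. Among the genes that passed were Cox18 (0.82), Cox17 (0.73), Tfeb (0.69) and Nfe2l2 (-0.71). Between Th2 and Th17, Cox17 (-1.16) and Myc (-0.81) were lower in Th2, and Suclg1 (1.09), Hif1a (0.90) and Gabpb2 (0.61) were higher. Over all genes 6.36% were higher and 5.67% lower in Th2, and counts per list are not given for this comparison.

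Between genotypes no member passed. Over all 6 pairs of NFATc1/ΔS and WT libraries, edgeR called 0% of all genes higher and 0% lower, and 0 of 99 members. An unadjusted p under 0.05 was found for 2 members and for 716 of all 12329 genes. DESeq2 and limma-voom also called 0 members. Among mitochondrial genes 12 of 13 fold changes were above 0, with a median of 0.20 (from -0.05 for mt-Co1 to 0.29 for mt-Cytb), beside -0.02 for the nuclear members, of which 34 of 86 were above 0, and 0.00 for all genes. By pair, each mitochondrial gene was higher in NFATc1/ΔS in only 2 (mt-Co1) to 4 of the 6 pairs, so the pairs did not agree in sign. The smallest adjusted p of a mitochondrial gene was 0.823, and 0 had an unadjusted p under 0.05.

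Within the 4 pairs of Th2 and Th17, which leave out the Th1 libraries, 0.749% of all genes were higher and 1.38% lower, and again 0 of 99 members passed. These pairs were chosen with earlier results of these data known, in which the Th1 WT day 2.5 library stood apart. An unadjusted p under 0.05 was found for 5 members and for 1750 of all 12415 genes, a larger share. DESeq2 and limma-voom called 0 members. Of the helper cell markers, 1 of 4 for Th1, 2 of 4 for Th2 and 3 of 5 for Th17 were lower in NFATc1/ΔS in these pairs; their part in the member values was not tested. Mitochondrial fold changes were above 0 in 13 of 13 but small, with a median of 0.09 (0.02 to 0.15). The pairs did not all agree. At Th17 day 3.5 the mitochondrial share of reads was lower in NFATc1/ΔS (2.35%) than in WT (2.50%), and in the other pairs it was higher. The nuclear median was -0.03. The nuclear members with the smallest p were Atp5f1 (-0.17; adjusted p = 0.172), a stalk subunit of ATP synthase, Uqcrq (-0.27), Ndufa1 (-0.19), Cox7a2 (-0.14) and Ndufv3 (-0.13), and none passed. Mitochondrial mRNAs are cut from shared precursors, so 13 of 13 in 1 direction are not 13 separate observations.

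Within single cell types, genotype was tested over 2 pairs each. edgeR called 0% of all genes and 0 members within Th1, Th2 or Th17. In these, 4, 0 and 1 members had an unadjusted p under 0.05, as had 666, 303 and 404 of all 12797 genes. The 1 in Th17 was Cox4i2, with 64 and 24 reads in the WT libraries (day 2.5, day 3.5) and 3 and 6 in the NFATc1/ΔS libraries, which is 4.52 and 1.68 CPM against 0.224 and 0.310. The groups did not overlap, at very low counts; the fitted log2 fold change was -3.29 ± 0.79 (SE; unadjusted p = 0.00509, edgeR adjusted p = 1). Without the pair of Th1 day 2.5, 1.64% of all genes passed and Cox4i2 was the 1 member called (-3.31 ± 0.54 SE; edgeR adjusted p = 0.00702). A fitted value from so few reads depends on the prior count. In Th1, Cox4i2 had 12, 31, 3 and 53 reads in the order given above, so the genotypes overlapped there. The test for unequal genotype effects among cell types called 0% of all genes and 0 members, with Cox4i2 at an unadjusted p of 0.035. In that test 2 members and 301 of all 12797 genes were under 0.05 unadjusted.

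Between days, members moved in both directions in Th2 and Th17. Over the 4 pairs of these cell types, 13 members were higher and 24 lower at day 3.5 among 99 tested, where 20.8% of all genes were higher and 19.7% lower. The medians were -0.12 over mitochondrial and -0.03 over nuclear members. The 4 pairs leave out all Th1 libraries, a choice made with earlier results of these data known. Over all 6 pairs edgeR called 0% of all genes in either direction and 0 members. An unadjusted p under 0.05 was found for 10 members and for 1333 of all 12329 genes. DESeq2 and limma-voom called 0 members.

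Among nuclear members that rose by day 3.5, Cox6b2, in CPM, went from 7.79 to 16.4 (Th2 WT), 7.26 to 14.8 (Th2 NFATc1/ΔS), 5.87 to 11.7 (Th17 WT) and 6.43 to 12.96 (Th17 NFATc1/ΔS). It was higher at day 3.5 in all 4 pairs, by a log2 fold change of 1.03 ± 0.11 (SE; edgeR adjusted p = 6.57e-05). In Th1 it went from 13.5 to 3.14 CPM in WT and from 2.49 to 2.13 in NFATc1/ΔS. Ndufaf4, a complex I assembly factor, went from 4.05 to 8.08, 4.59 to 7.80, 6.43 to 11.7 and 4.04 to 10.9 CPM in the same 4 pairs, or 1.01 ± 0.14 (SE; adjusted p = 0.000409). Its promoter is printed above. The others named were smaller, from 0.30 (Atp5j) to 0.41 (Ndufab1, the mitochondrial acyl carrier protein), with Ndufs5 (0.33), Ndufb4 (0.31), Ndufb7 (0.31) and Ndufb2 (0.37) between.

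Among those that fell, Ndufv3, an accessory subunit of the NADH-oxidising arm of complex I, dropped from 256 to 168 and from 235 to 142 CPM in Th2 (WT, NFATc1/ΔS) and from 187 to 128 and 177 to 120 in Th17. The log2 fold change was -0.61 ± 0.06 (SE; edgeR adjusted p = 7.49e-05) and all 4 pairs were lower. Cox7a2l, listed above as a supercomplex factor, changed by -0.51, Ndufa6 by -0.52 and Cox7c by -0.48. Uqcrh changed by -0.41, Uqcrc2, a core protein of complex III, by -0.40 and Ndufs3 by -0.38.

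Complex V showed opposite movement within 1 subunit: Atp5g2 fell by 0.50 (303 to 223, 304 to 189, 270 to 220 and 299 to 198 CPM in the 4 pairs), while Atp5g3 rose by 0.27 (178 to 231, 197.1 to 196.5, 158 to 223 and 171 to 195 CPM). Atp5g2 was lower in 4 of 4 pairs and Atp5g3 higher in 3 of 4. The other gene of subunit c, Atp5g1, did not pass. Of the 12 members that rose and have a promoter in the table, 3 held the NRF1 core and 3 the ETS motif, and of the 17 that fell, 2 and 3. Of the 43 tested members that did not pass, 10 held the NRF1 core and 12 the ETS motif. As shares, this is 25.0% for each motif in members that rose and 23.3% and 27.9% in those that did not pass. In those that fell it is 11.8% and 17.6%. The numbers are small and the classes were not tested against each other.

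Of the mitochondrial mRNAs, mt-Co1 (-0.33 ± 0.09 SE; edgeR adjusted p = 0.0137), mt-Atp6 (-0.28) and mt-Atp8 (-0.27) fell, and none rose. mt-Co1, in CPM and in the same order of pairs, went from 14030 to 13340, 15120 to 11870, 12490 to 10320 and 15190 to 9825. All 4 pairs were lower at day 3.5. mt-Cytb had 0.24 and an adjusted p of 0.0601 and did not pass. The genes mt-Atp8 and mt-Atp6 overlap, as printed above, and their values are not independent observations. Leaving out 1 pair at a time gave 6 members higher and 18 lower (without Th2 WT), 19 and 15 (without Th2 NFATc1/ΔS), 5 and 27 (without Th17 WT) and 9 and 13 (without Th17 NFATc1/ΔS), where 14.9 to 17.1% of all genes were higher and 15.3 to 18.4% lower. In these 4 pairs the 2 erythroid and 3 CD8 T and NK markers tested were also lower at day 3.5, and their part was not tested.

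**Figure D4:**
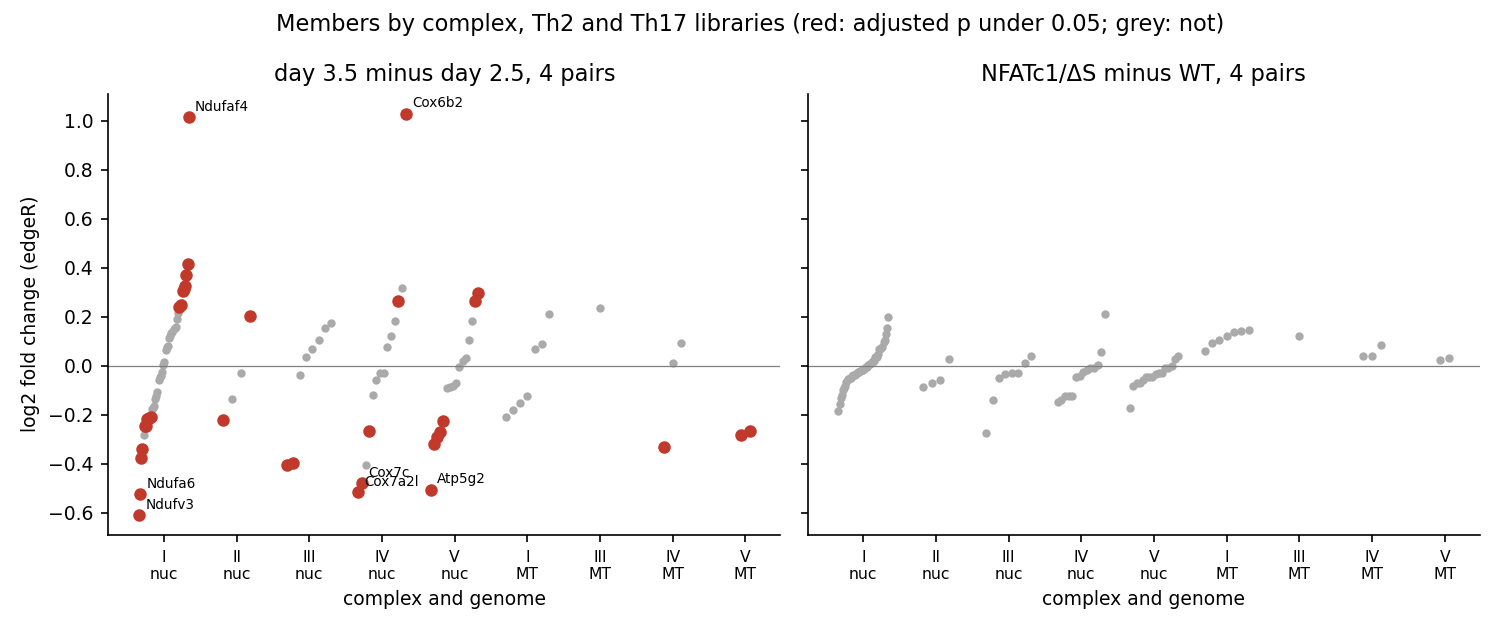
Log2 fold change of each member tested in the Th2 and Th17 libraries, by complex and genome, for day 3.5 minus day 2.5 (left) and NFATc1/ΔS minus WT (right); red points passed edgeR's adjusted p of 0.05. The left panel holds 13 red points above 0 and 24 below, among them 3 mitochondrial genes, and the right panel holds none.

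Day within single cell types was tested over 2 pairs each. Within Th1 5.36% of all genes passed and 0 members, and within Th2 and Th17 0% of all genes and 0 members passed. In Th1, Th2 and Th17, 15, 15 and 14 members had an unadjusted p under 0.05. Of all 12797 genes, 3409, 2349 and 2737 had, so the members' shares were not above those of all genes. Without the pair of Th1 day 2.5, in the same model, 27.2% of all genes passed in Th2 and 31.4% in Th17. Members called were then 24 in Th2 (5 higher, 19 lower) and 27 in Th17 (14 higher, 13 lower). Of these, 22 and 24 were also among the 37 called over the 4 pairs, and 14 were called in both cell types.

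The test for unequal day effects among cell types called 5.01% of all genes and 0 of 100 members. An unadjusted p under 0.05 was found for 15 members and for 3654 of all 12797 genes, a larger share. The members nearest to passing were Ndufv3 (edgeR adjusted p = 0.0746), Cox6b2 (0.0787), Cox7a2l (0.0813), Ndufaf4 (0.0877) and Ndufb4 (0.0973). Ndufv3 measured 163 and 192 CPM in Th1 WT and 76.7 and 180 in Th1 NFATc1/ΔS (day 2.5, day 3.5), which is the opposite direction to Th2 and Th17. In each of these members a day 2.5 Th1 library held either the highest or the lowest Th1 value. A day 3.5 Th1 library held the opposite extreme.

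The test of genotype by day, with cell types as replicates, called 0% of all genes and 0 members; 9 members had an unadjusted p under 0.05, 6 of them mitochondrial, as had 324 of all 12797 genes. All 13 mitochondrial estimates were below 0 (median -0.57), meaning a smaller NFATc1/ΔS minus WT difference at day 3.5 than at day 2.5, and the smallest adjusted p was 0.985. Most nuclear estimates were below 0 too, so this sign was not particular to the mitochondrial genes. The median over all genes was -0.006, and the share of all genes below 0 was not counted. These values include the library labelled Th1 NFATc1/ΔS day 2.5, whose mitochondrial mRNAs other than mt-Co1, mt-Co2, mt-Atp6 and mt-Atp8 are the highest of all 12. Without the Th1 day 2.5 pair, 0% of all genes and 0 of 101 members passed, but 39 members had an unadjusted p under 0.05, where 7.62% of all 13409 genes had. Of the 39, 38 were below 0 and 12 were mitochondrial. All 13 mitochondrial estimates were again below 0 (median -0.34), as were 81 of 88 nuclear ones (median -0.19). The smallest adjusted p was 0.264, for Cox8a (-0.62 ± 0.10 SE).

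**Figure D5:**
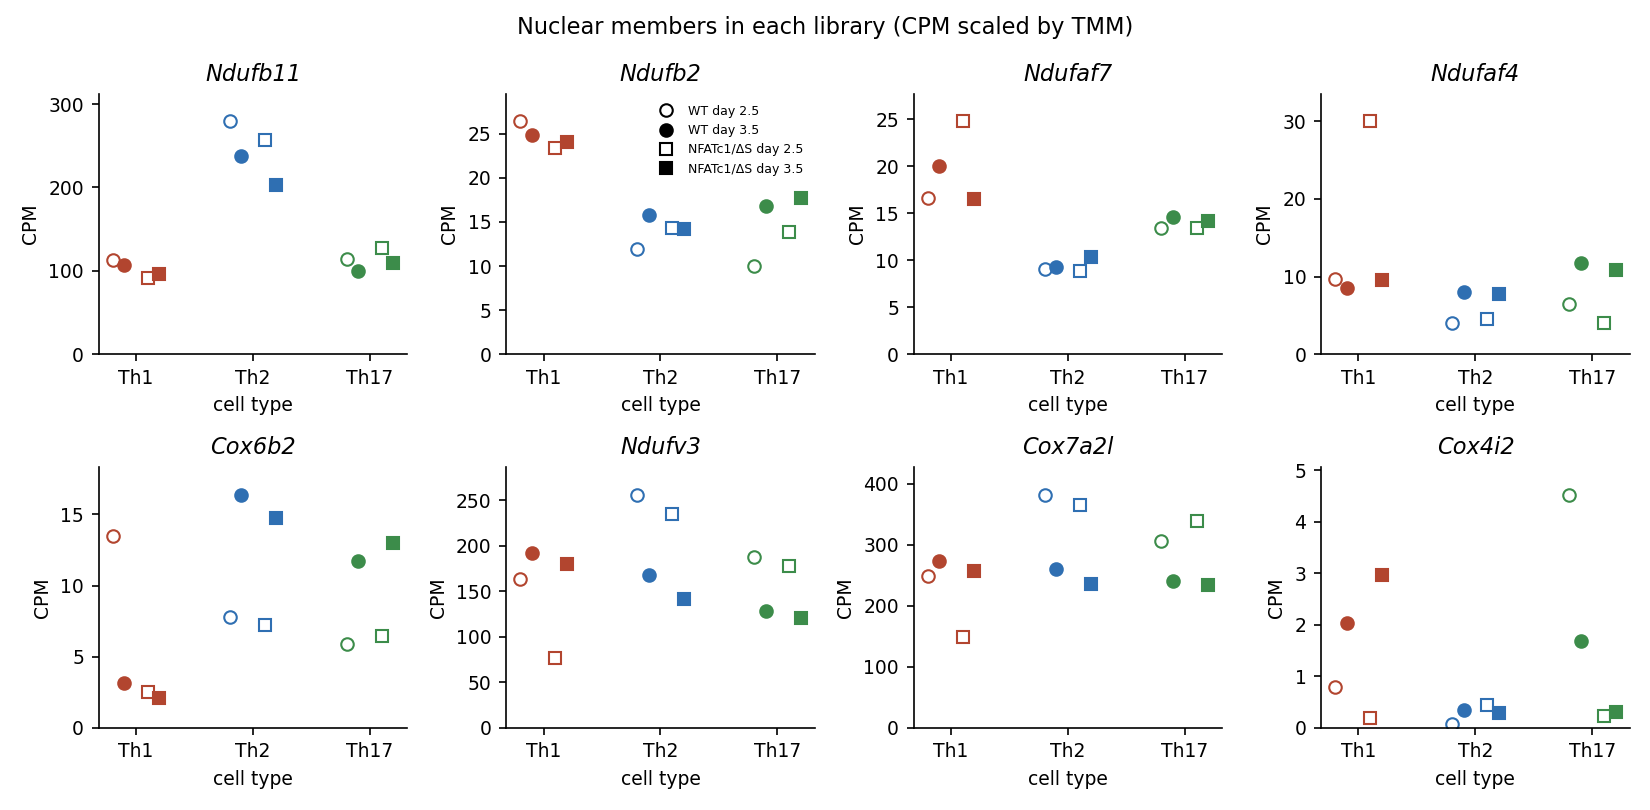
CPM of 8 nuclear members in each library, by cell type; circles are WT, squares NFATc1/ΔS, open symbols day 2.5 and filled symbols day 3.5. Ndufb11 is highest in the 4 Th2 libraries (203 to 279 CPM), Cox6b2 is higher at day 3.5 in each Th2 and Th17 pair, and Cox4i2 stays under 5 CPM.

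In Th2 and Th17, 6 of 45 electron carriers and assembly factors were higher at day 3.5 and 10 lower (20.8% and 19.7% of all genes, here and for the next lists), with Timmdc1 (0.57), Cycs (0.49), which encodes cytochrome c, and Atpif1 (0.43), the inhibitor of ATP synthase, higher and Cox16 (-0.57), Higd1a (-0.51) and Cox10 (-0.48) lower. Of 33 mitochondrial DNA and RNA genes 6 were higher and 4 lower, led by Rnaseh1 (0.58) and by Grsf1 (-0.62), which binds mitochondrial RNA. Of 16 regulators 2 were higher, led by Pprc1 (0.64), a coactivator related to PGC-1, and 4 lower, led by Ppard (-0.50). The citric acid cycle list held 1 higher (Idh3a 0.39) and 3 lower (Idh3b -0.66 first), the import list 4 and 3, and the ribosomal proteins 10 and 10. In the genotype comparisons none of these list genes passed.

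In every comparison 6 members stayed untested for low counts: Cox7b2, Cox6a2, Cox8b, Cox8c, Ndufa4l2 and Atp5o_1, the entry for Atp5o with fewer reads (98 in all); Cox4i2 (212 reads) was also untested over the genotype and day pairs. Besides those named, low uniqueness touched Cox7c (7.62% unique reads), Ndufb4 (10.6%), Ndufab1 (16.1%) and Ndufs5 (19.6%), whose counts may hold reads of near-identical copies.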

How the data were processed

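The authors deposited 1 table per library with read counts for 41457 genes; per the file headers these are total, unique, exon and intron reads. Per the submitters' processing notes the build is GRCm38; aligner and counter: not given in the sources used here. The deposited TPM and RPKM values were not used.

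From the deposited total counts (13417121 to 17774400 per library), edgeR 4.0.16 in R 4.3.3 fitted robust quasi-likelihood models after TMM scaling and filterByExpr (min.count 10, min.total.count 15); p-values were adjusted by Benjamini-Hochberg over all genes, at 0.05. The SE is the size of the log2 fold change over the square root of F, covering counting error and spread together; the reads carry no molecular identifiers. Blocks were genotype by day for cell types, cell type by day for genotype, and cell type by genotype for day; single cell types and interactions used 1 model of 12 libraries. Signed values are the first-named group minus the second. CPM use TMM-scaled library sizes.

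Members and lists were chosen with earlier results of these data known. Named were all mitochondrial genes, the Sdh genes, members with tissue paralogues and subunit c genes, and per comparison up to 8 nuclear members that passed in each direction by largest fold change, or, where under 5 passed, the 5 of smallest p; of each list, up to 3 that passed each way. A few genes that this rule or the marker lists take in are not reported here. Other members that passed were named after their values were seen. Alternatives tried were DESeq2 1.42.0, limma-voom (limma 3.58.1), RLE scaling, no filter, unique or exon reads, no block, leaving out each block in turn and leaving out libraries. The test scripts were tested on simulated data.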

Additional observations from a re-analysis of the deposited data

Results flagged for a closer look

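In groups of 4 libraries of a cell type, a library was singled out where its gap to the nearest other, over the group's range, exceeded Dixon's critical value for 4 values at 95%. This held for 18 of 186 groups, and in 13 of the 18 the library was Th1 NFATc1/ΔS day 2.5. The 4 libraries of a group differ in genotype and day, and the groups share libraries. No rate expected by chance can therefore be set beside these counts. No explanation was tested.

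In that library mt-Co1 made up 29.66% of mitochondrial member reads (46.3 to 48.9% in the other Th1 libraries). mt-Cytb stood at 2665 CPM (1032 to 1061 in the others), mt-Nd4 at 1800 (807 to 854), mt-Nd1 at 2125 (1048 to 1196), mt-Nd2 at 1153 (561 to 651), mt-Co3 at 2458 (1493 to 1649), mt-Nd3 at 380.9 (99.0 to 146) and mt-Nd4l at 303.3 (113 to 142). Among nuclear members, Ndufa5 was high at 43.83 CPM (19.3 to 20.0), Ndufaf4 at 29.96 (8.50 to 9.63) and Ndufab1 at 66.4 (48.2 to 50.9). Ndufa6 was low at 48.8 CPM (86.6 to 90.0) and Uqcrh at 112.1 (146 to 153).

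In Th1 WT day 2.5, Cox6b2 was high at 13.46 CPM (2.13 to 3.14 in the other Th1 libraries). In Th2 WT day 3.5, 3 members were high: Uqcrfs1 at 156.2 CPM (136 to 137), Ndufb8 at 72.01 (65.0 to 66.1) and Ndufa1 at 46.86 (34.2 to 35.7). In Th2 NFATc1/ΔS day 2.5, Ndufa3 was high at 47.24 (39.6 to 40.8).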

How the results depend on the processing

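Of the values of named members under the alternatives, 1762 kept direction and side of the threshold, 19 gained and 95 lost the call, and 0 reversed. For the counts of members that passed, the cause of a change was not tested unless stated. Th1 against Th2, 1 lower: RLE size factors gave 2, DESeq2 5, exon reads 2, and leaving out the library Th1 WT day 2.5 or Th1 NFATc1/ΔS day 2.5 gave 3 each; 13 higher became 5 with no filter on low counts. Without the replicate block, 2 were lower; the libraries carry no replicate numbers, so the block is the shared combination of labels. Leaving out 1 block of genotype and day gave 2 to 8 higher and 1 to 4 lower. Th1 against Th17, 6 higher and 0 lower: DESeq2 gave 16 higher, no filter 2, and leaving out either day 2.5 Th1 library 1 lower; leaving out a block gave 0 to 1 in both directions. Th2 against Th17, 2 higher and 2 lower: DESeq2 gave 5 higher, the 8 Th2 and Th17 libraries alone 24 higher and 5 lower; lower were 1 with RLE, limma-voom or exon reads and 0 with no filter; leaving out a block gave 1 to 3 higher and 0 to 1 lower. Genotype over 4 pairs gave 2 lower with no filter. Day over 4 pairs gave 7 higher with DESeq2 (13), and 5 to 19 higher and 13 to 27 lower leaving out a pair, with fewer libraries in each fit. Without the Th1 day 2.5 pair, genotype within Th17 gave 1, day within Th2 24 and day within Th17 27; cell type by day gave 2 with no filter. The ratio of mitochondrial to nuclear reads, Th1 minus Th2, became -0.13 without mt-Co1, and -0.27 when the library Th1 NFATc1/ΔS day 2.5 was also left out; Th2 minus Th17 then became -0.02 from 0.03, a change within its SD of 0.16, and day 3.5 minus day 2.5 became 0.07 from -0.04 without mt-Co1 and that library, also within its SD of 0.16. Genotype by day had 39 members at an unadjusted p under 0.05 without the Th1 day 2.5 pair, against 9, and 0 passed in both. Leaving out the library Th1 NFATc1/ΔS day 2.5, both day 2.5 Th1 libraries (for the ratio) or mt-Co1 was chosen after seeing the data. The fits over 4 pairs leave out all Th1 libraries. They were chosen because the Th1 WT day 2.5 library stood apart in earlier results of these data. Depth limits Cox4i2, Cox6a2, Cox7b2, Cox8b, Cox8c, Ndufa4l2 and Atp5o_1.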
